A study of Arabidopsis thaliana with 3 samples.

Results

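The abscisic acid receptors are a family of small soluble proteins, PYR1 and the PYR1-like (PYL) proteins, also named RCAR. The genes described here are 9 of the family, PYR1, PYL1, PYL2, PYL4, PYL5, PYL6, PYL7, PYL8 and PYL9, taken by locus code from the 25665 loci that have a probe on the arrays. All 9 had 1 probe each on every array. They were set between tdt-1 and wild type in whole Arabidopsis thaliana seedlings aged 3 days, grown under constant light at 22 °C on plates of MS agar. The labels give no accession or background line, no treatment and no name for the gene affected in tdt-1, and they do not say how mutant seedlings were picked. Each of 3 Agilent arrays held RNA of tdt-1 seedlings in 1 dye and RNA of wild-type seedlings in the other, and the study's design text calls the 3 biological replicates. On replicates 1 and 2 tdt-1 was in Cy5. On replicate 3 it was in Cy3, on a later array layout scanned on another day, so that dye, layout and scan day cannot be told apart.

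In the absence of abscisic acid, clade A protein phosphatases 2C keep the SnRK2 kinases inactive. A receptor that binds the hormone closes over it and then binds and inhibits the phosphatase, which frees the kinases to phosphorylate bZIP transcription factors such as the ABF proteins and ABI5. In Arabidopsis seedlings this pathway restrains germination and early growth and induces genes of water stress tolerance. The family falls into 3 subfamilies. PYR1, PYL1 and PYL2 form dimers that part when the hormone binds, whereas PYL4, PYL5 and PYL6, and PYL7, PYL8 and PYL9, form the other two groups, in which most members act as monomers.

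In tdt-1 seedlings the transcripts of 4 receptors were lower than in wild type and none was higher. PYL6 fell to a level 3.75-fold below wild type, PYL5 to 2.28-fold, PYR1 to 1.81-fold and PYL9 to 1.71-fold below (n = 3 arrays). The other 5 did not pass the test: PYL4 and PYL2 stood lower on all 3 arrays by amounts that differed between arrays, PYL1 stood slightly lower, and PYL7 and PYL8 stood near 0. The test was limma's moderated test of the log2 ratio against 0 over the 3 arrays, called at a Benjamini-Hochberg adjusted p under 0.05 over all tested genes. In that fit 5.97% of 20484 tested genes were called lower in tdt-1 and 7.36% higher, or 13.3% in either direction. Without adjustment 7 of the 9 receptors had a p under 0.05, all lower, beside 7181 of the 20484 tested genes in either direction. The 9 genes were chosen by their family and by their log2 ratios in this same contrast, so their calls describe these arrays and nothing is read from the count. Loess centred each array, so every ratio is relative to the bulk of transcripts. In RNA of whole seedlings, fewer cells of a type and less RNA per cell cannot be told apart.

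**Figure D1:**
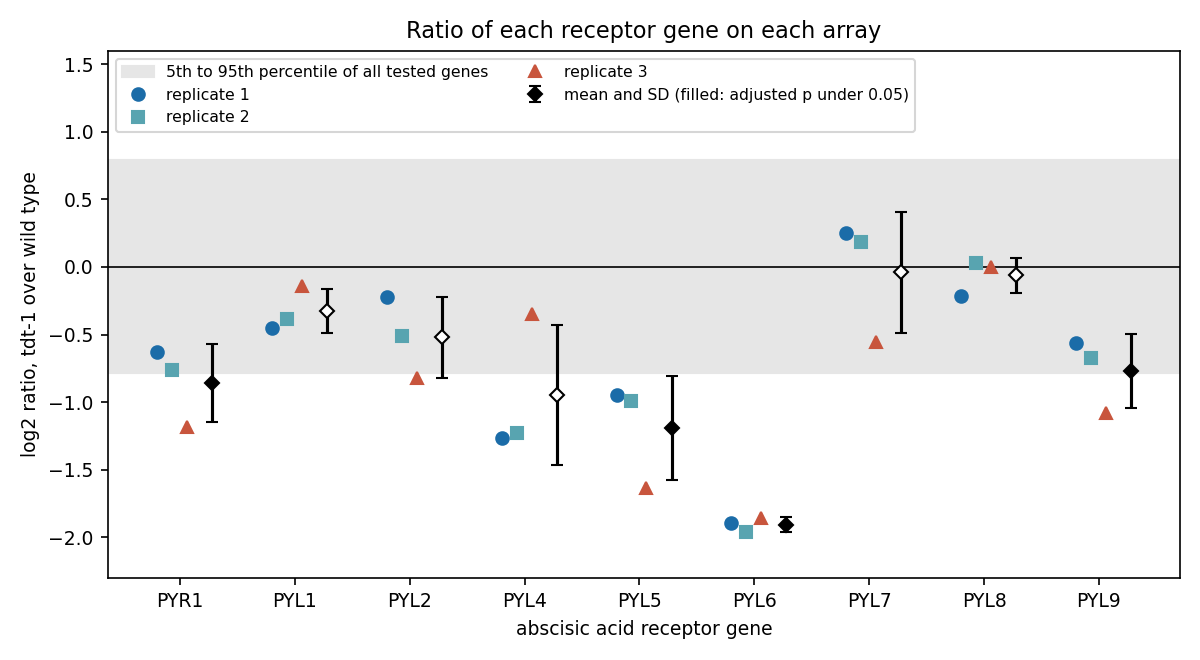
Log2 ratio of tdt-1 over wild type (y axis) for each receptor gene (x axis) on replicates 1, 2 and 3, with the mean and SD over the 3 arrays as a diamond, filled where the adjusted p was under 0.05. The grey band runs from −0.78 to 0.79, the 5th and 95th percentiles of the mean ratio over all tested genes. PYL6 lies near −1.91 on every array, while PYL4 and PYL7 differ most between replicate 3 and the other two.

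All 9 receptor probes were well above background in both genotypes on all 3 arrays, and none was saturated. Levels below are log2 normalised intensities of each channel, after loess within arrays and quantile normalisation of the average intensity between them. They can be set between genotypes for 1 probe, not between probes. Ratios are on the log2 scale, tdt-1 divided by wild type, and errors are SDs over the 3 arrays.

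The subfamily of PYL4, PYL5 and PYL6 held the lowest mean ratios, though on replicate 3 PYL4, at −0.35, stood above PYR1, PYL2, PYL7 and PYL9. PYL6 (AT2G40330), whose probe lies at 16851969 to 16852028 on chromosome 2, had levels of 7.81, 7.78 and 8.61 in tdt-1 on replicates 1, 2 and 3, against 9.71, 9.74 and 10.47 in wild type. Every tdt-1 level was below every wild-type level. The ratios were −1.90, −1.96 and −1.86, with a mean of −1.91 ± 0.05, the smallest SD among the 9 receptors and below the median SD of 0.21 over all tested genes. This placed PYL6 at percentile 0.351 of the mean ratios of all tested genes, counted from the lowest. Its spots in tdt-1 were dim on replicates 1 and 2, with mean signals of 97.7 and 109.6 over local backgrounds of 48 and 49, and bright on replicate 3, with 1637 over 35. Wild-type signals were 439.6, 484 and 8927. The mean ratio was −2.17 with plain background subtraction and −1.76 with no background correction, against −1.91 with the normexp correction and its offset of 50. The scanner software's own ratio, which differs in both background handling and dye normalisation, gave −2.52.

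PYL5 (AT5G05440), with its probe at 1609963 to 1610022 on chromosome 5, had levels of 10.32, 10.36 and 9.83 in tdt-1, against 11.27, 11.36 and 11.47 in wild type. The genotypes did not overlap. Its ratios of −0.95, −0.99 and −1.64 gave a mean of −1.19 ± 0.38, with the lowest value on replicate 3. It is the other receptor of the 9 whose mean fell by 2-fold or more.

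PYL4 (AT2G38310), with its probe at 16058104 to 16058163 on chromosome 2, had levels of 10.87, 10.92 and 11.29 in tdt-1, against 12.13, 12.15 and 11.64 in wild type. These did not overlap either, but the arrays disagreed on the size. Its ratios were −1.26 and −1.23 on replicates 1 and 2 and −0.35 on replicate 3, which gave the largest SD among the 9 receptors, −0.95 ± 0.52, and PYL4 did not pass the test. On replicates 1 and 2 PYL4 thus had a lower ratio than PYL5, and on replicate 3 a higher one.

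Among the dimeric receptors, PYR1 stood lowest. PYR1 (AT4G17870) is the receptor named for resistance to pyrabactin, a synthetic agonist, and its probe lies at 9929335 to 9929394 on chromosome 4. It had levels of 11.70, 11.74 and 10.86 in tdt-1, against 12.33, 12.50 and 12.04 in wild type, with no overlap. Its ratios of −0.63, −0.76 and −1.18 gave a mean of −0.86 ± 0.29.

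PYL2 (AT2G26040, probe at 11101952 to 11102011 on chromosome 2) was dim in tdt-1 on replicates 1 and 2, with mean signals of 75.2 and 83.9 over local backgrounds of 46 and 49. Its levels were 6.90, 7.15 and 7.40 in tdt-1, against 7.13, 7.66 and 8.22 in wild type, so the genotypes overlapped between arrays although tdt-1 was lower within each. The ratios were −0.22, −0.51 and −0.82, and averaged −0.52 ± 0.30, which did not pass. The scanner software's own ratio had a mean of −0.96 for PYL2 and passed (limma adjusted p = 0.0271).

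PYL1 (AT5G46790, probe at 19001250 to 19001309 on chromosome 5), the closest relative of PYR1, had levels of 10.90, 10.99 and 11.40 in tdt-1, against 11.35, 11.37 and 11.54 in wild type. The genotypes overlapped, since replicate 3 was brighter in both. Ratios of −0.45, −0.39 and −0.14 gave −0.33 ± 0.16, which did not pass.

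In the subfamily of PYL7, PYL8 and PYL9 the members differed. PYL9 (AT1G01360, probe at 142832 to 142891 on chromosome 1) was, under the name RCAR1, among the receptors first found through binding to clade A phosphatases. It had levels of 8.98, 8.86 and 8.17 in tdt-1, against 9.54, 9.53 and 9.25 in wild type, with no overlap. Its ratios were −0.56, −0.67 and −1.08, with a mean of −0.77 ± 0.27, which is also the median of the 9 means.

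PYL8 (AT5G53160, probe at 21579090 to 21579149 on chromosome 5), a receptor known for its part in root responses to abscisic acid, had levels of 11.82, 11.95 and 11.20 in tdt-1, against 12.03, 11.92 and 11.21 in wild type. The genotypes overlapped almost fully, and the ratios of −0.21, 0.03 and −0.0031 gave −0.06 ± 0.13. PYL7 (AT4G01026, probe at 448015 to 448074 on chromosome 4) had levels of 8.84, 8.84 and 8.25 in tdt-1, against 8.59, 8.66 and 8.81 in wild type. It was higher in tdt-1 on replicates 1 and 2, at 0.25 and 0.19, and lower on replicate 3, at −0.56, and its mean was −0.04 ± 0.45. PYL7 and PYL8 were the 2 receptors between the 25th and 75th percentiles of all tested genes.

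**Figure D2:**
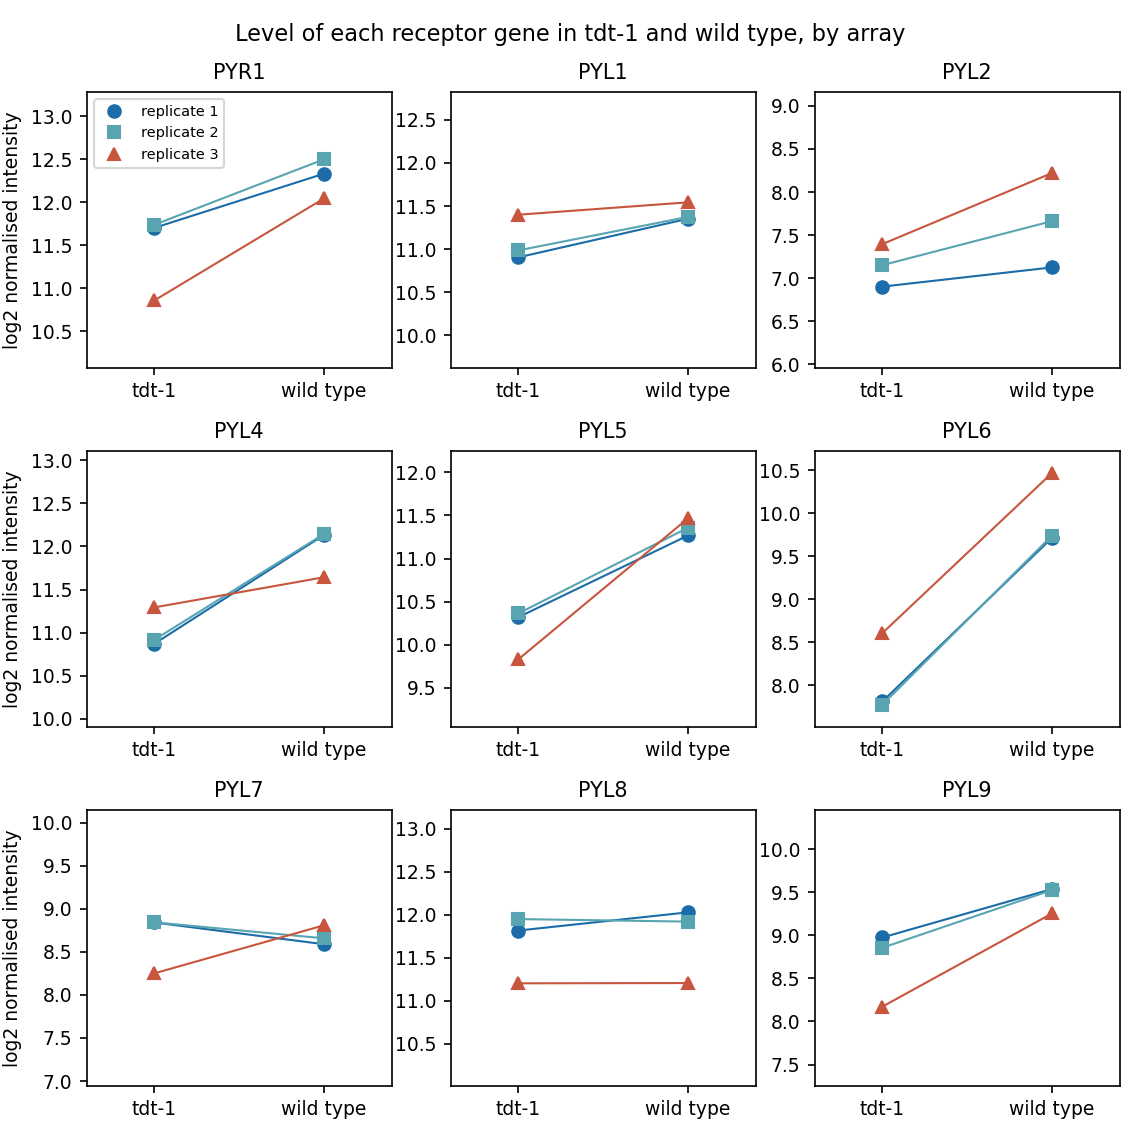
Log2 normalised intensity (y axis, spanning the same number of log2 units in each panel) of each receptor gene in tdt-1 and wild type, with a line joining the 2 genotypes on each of the 3 arrays. The lines of PYL6 run parallel, those of PYL4 differ in slope, and for PYL7 replicate 3 crosses replicates 1 and 2.

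Across the family, 7 of the 9 receptors were lower in tdt-1 on all 3 arrays, a pattern that 27.5% of all tested genes showed, and none was higher on all 3, as 31.4% of tested genes were. For 5 of the 9 the tdt-1 levels lay wholly below the wild-type levels, as for 13.3% of all tested genes, and for none wholly above them, as for 13.5%. The median of the 9 ratios was −0.56, −0.67 and −0.82 on replicates 1, 2 and 3 and −0.77 over the means, beside 0.02 over all tested genes. Replicate 3 was lower than the mean of replicates 1 and 2 for 5 receptors (PYR1, PYL2, PYL5, PYL7 and PYL9) and higher for the other 4. Of the 9, only PYL6, PYL1 and PYL8 had an SD below the median of all tested genes.

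The calls depended on how the spread between the arrays was counted, and some also on normalisation or background correction. PYL9 did not pass with no background correction. PYL6 alone passed when replicate 1 or replicate 2 was left out. None of the 9 passed with replicates 1 and 2 averaged as 1 replicate, with median centring in place of loess or with a trended, robust variance. Calls were also lost over all tested genes: 82 were lower without replicate 1, 45 without replicate 2 and 19 with replicates 1 and 2 averaged. With median centring or the trended variance 0 were lower. Within replicates 1 and 2, which share dye, layout and scan day, 7 receptors were lower and PYL7 was higher at 0.22, and with a term for dye and batch 8 were lower and none higher, both on 1 residual degree of freedom among the arrays. Of all 20484 tested genes, 5463 were called lower and 7002 higher within replicates 1 and 2. With the dye term 6260 were called lower and 6941 higher.

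**Figure D3:**
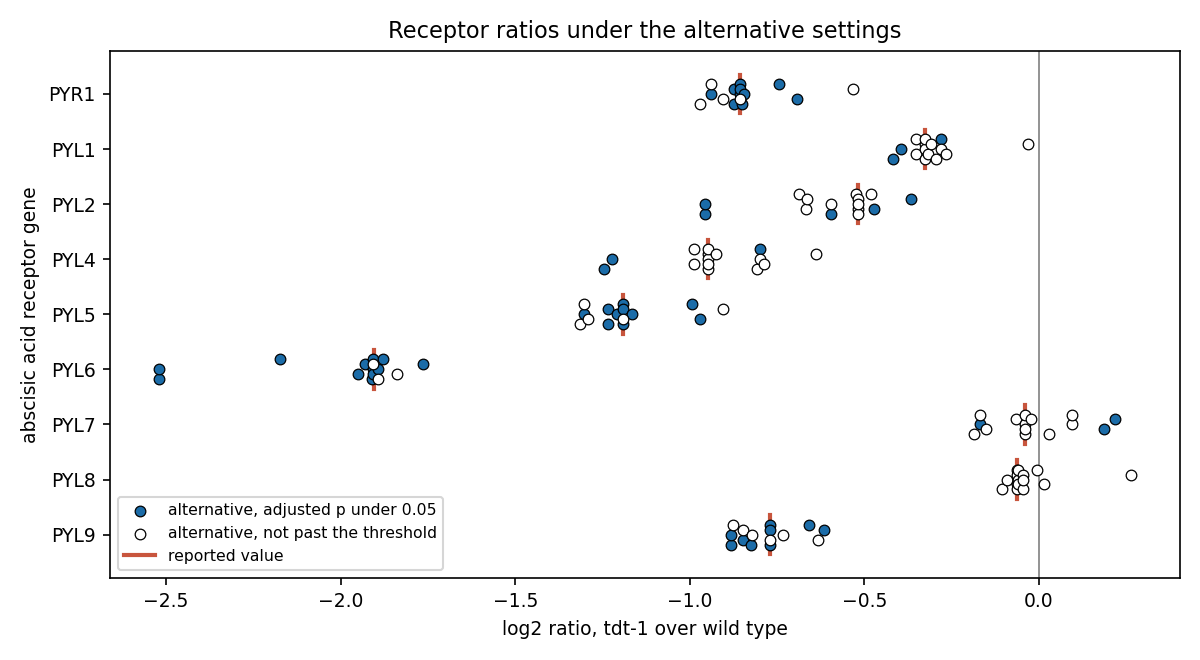
Log2 ratio of tdt-1 over wild type (x axis) of each receptor gene (y axis) under 15 alternative settings, as circles filled where the adjusted p was under 0.05, with the reported value as a red line. PYL6 ranges from −2.52 to −1.76 and keeps its sign in all of them, as do PYR1, PYL1, PYL2, PYL4, PYL5 and PYL9, while PYL7 and PYL8 lie on both sides of 0.

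The arrays also carried the other 5 genes of the family, PYL3, PYL10, PYL11, PYL12 and PYL13, which are not among the 9. Only PYL3 was bright enough to be tested. It stood at 0.15, 0.41 and −1.48 on replicates 1, 2 and 3, and averaged −0.31 ± 1.03, which did not pass (limma adjusted p = 0.635). PYL10 was well above background only in wild type on replicate 3, and PYL12 only in wild type on replicates 1 and 2. PYL13 was above background in tdt-1 on replicate 1 and in wild type on replicates 1 and 2. PYL11 was above background in wild type on replicates 1 and 2, and in tdt-1 on replicate 3. No ratio is given for these 4 genes. The probe sequences were not analysed here, so cross-hybridisation between family members was not tested.

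By the Euclidean distance between the 3 ratios, the gene most like PYL6 was BT5 (AT4G37610), described as a BTB and TAZ zinc finger protein, at a distance of 0.0889. RVE1 (AT5G17300), a MYB transcription factor, and GSTL1 (AT5G02780), a lambda glutathione transferase, followed at 0.255 each. BT5 was the only tested gene within 0.25 of PYL6. PYL7, the receptor with the highest mean, had 520 tested genes within that distance, of which AT1G44770, AT3G25610 and UGLYAH (AT4G17050) were nearest at 0.0401, 0.0412 and 0.0419. These are likenesses over 3 values and say nothing of shared function.

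Of the 9 clade A phosphatase genes, whose products the receptors inhibit, 6 rose in tdt-1, none fell and 3 did not pass, with a median ratio of 0.85, beside 7.36% of all tested genes called higher. HAI1, a phosphatase strongly induced by abscisic acid, had ratios of 1.998, 2.14 and 1.51 (1.88 ± 0.33, limma adjusted p = 0.0162). ABI2 had 2.08, 2.04 and 1.41 (1.84 ± 0.38, adjusted p = 0.0185), and its paralog ABI1 had 1.69, 1.35 and 0.93 (1.33 ± 0.38, adjusted p = 0.0259). HAI2, HAI3 and HAB1 were the others that rose, by 0.613 to 0.999. HAI2 and HAI3 were dim on all 3 arrays, with mean signals of 98.1 to 257.1 in tdt-1 and 140.2 to 186.6 in wild type. The levels of HAI3 overlapped between the genotypes. PP2CA, HAB2 and AHG1 did not pass, at 0.85 ± 0.76, 0.36 ± 0.25 and 0.10 ± 0.31.

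None of the 10 SnRK2 kinase genes passed limma's test, beside 13.3% of all tested genes in either direction, and their median ratio was 0.20. Of the 10, 2 had an unadjusted p under 0.05, beside 7181 of 20484 tested genes. OST1, the kinase of stomatal closure, had the smallest p, at 0.32 ± 0.13 (limma adjusted p = 0.102). Of 9 tested transcription factor genes 2 rose and none fell, beside 7.36% of all tested genes called higher and 5.97% called lower. EEL, a bZIP factor of seed genes, stood at 0.80 ± 0.06 (limma adjusted p = 0.0208) and ABI5 at 0.69 ± 0.20 (adjusted p = 0.0374). EEL was dim on replicates 1 and 2, with mean signals of 107.7 and 119.8 in tdt-1 and 138 and 140.8 in wild type. Its levels overlapped between the genotypes across arrays. The EEL ratio was 0.70 with no background correction and 1.265 with the scanner software's own ratio. By the scanner software's own ratio ABI5 stood at 1.25 and did not pass (limma adjusted p = 0.0907). ABF1, ABF2, ABF3 and ABF4 did not pass, at 0.71 ± 0.41, 0.0016 ± 0.13, 0.52 ± 0.43 and 0.41 ± 0.13.

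Genes induced by abscisic acid had a median ratio of 1.46, the highest of the 8 pathway lists. Of 18 tested members 12 rose, none fell and 6 did not pass, beside 7.36% of all tested genes called higher and 5.97% called lower. RD20, a calcium-binding caleosin, had ratios of 4.07, 3.64 and 2.55 (3.42 ± 0.78, limma adjusted p = 0.0185). COR15A, a chloroplast protein of freezing tolerance, had 3.19, 3.40 and 1.98 (2.85 ± 0.77, adjusted p = 0.0214), and the dehydrin gene RAB18 had 3.15, 2.65 and 2.04 (2.61 ± 0.56, adjusted p = 0.0183). Replicate 3 gave this list a median of 0.79, against 2.11 for replicate 1 and 1.68 for replicate 2.

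Of 8 tested synthesis genes 1 rose, NCED3, which encodes the rate-limiting dioxygenase under water stress, at 0.58 ± 0.13 (limma adjusted p = 0.0376), a count near the 7.36% of all tested genes called higher. With the scanner software's own ratio NCED3 stood at 1.28 and did not pass (limma adjusted p = 0.0531). Of 6 genes for breakdown and conjugation 2 passed limma's test, both hydroxylases and both higher, beside 7.36% of all tested genes called higher. CYP707A1 rose by 0.74 ± 0.26 (adjusted p = 0.0410). CYP707A4 entered the test only through tdt-1, since its wild-type spot was well above background on 1 of 3 arrays, and its ratio of 1.21 ± 0.29 (adjusted p = 0.0230) has no measured wild-type level behind it on the others. That ratio was 1.08 with no background correction and 2.83 with the scanner software's ratio, and 1 gene of the list passed where both genotypes had to be above background. BGLU18, which releases abscisic acid from its glucose ester, stood at 0.08 and −0.63 on replicates 1 and 2 and −4.06 on replicate 3. None of 4 transporter genes passed limma's test, beside 13.3% of all tested genes in either direction. NPF4.6, an abscisic acid importer, stood at 0.46 ± 0.22 (adjusted p = 0.0807). It was the 1 transporter gene at an unadjusted p under 0.05, beside 7181 of 20484 tested genes. Of 7 tested genes for receptor turnover and membrane recruitment 1 rose: CUL4, the cullin of ubiquitin ligases that include the one targeting PYL8, at 0.50 ± 0.03 (adjusted p = 0.0371), again near the 7.36% of all tested genes. CAR1, which recruits receptors to membranes, stood at −0.45 ± 0.12 (adjusted p = 0.0558).

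**Figure D4:**
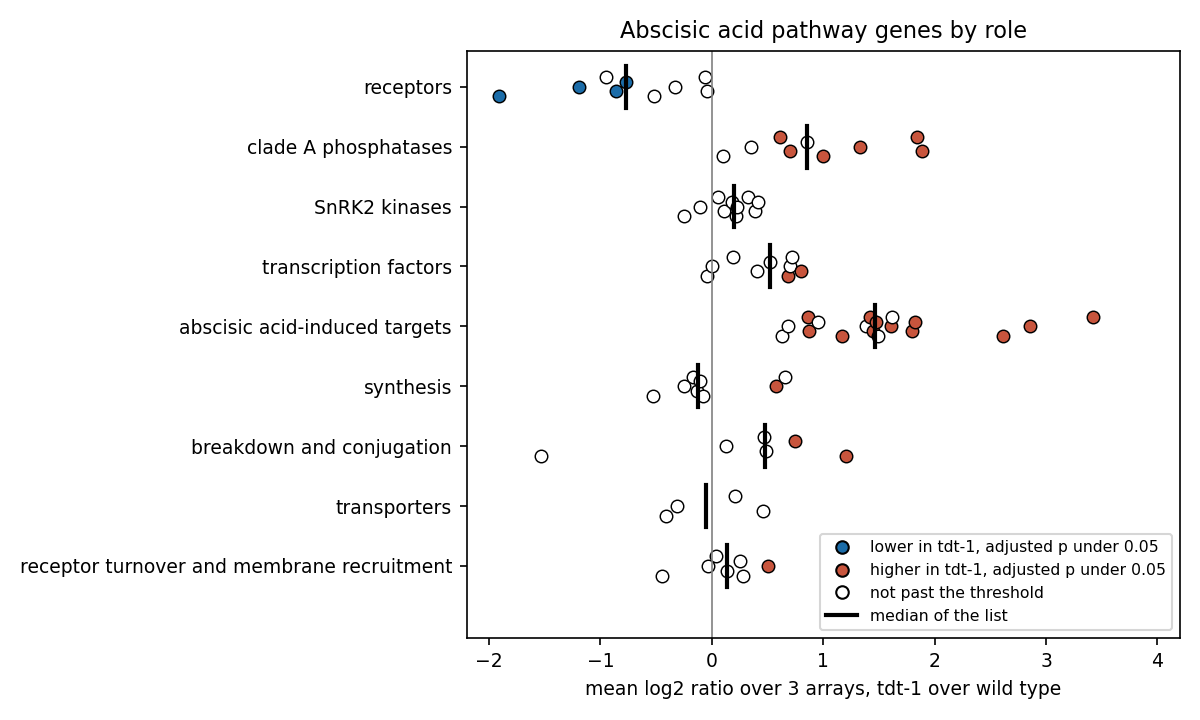
Mean log2 ratio over 3 arrays (x axis) of every tested gene of 9 abscisic acid gene lists (y axis), filled blue where called lower in tdt-1, red where called higher and open where not past the threshold, with the list median as a black bar. The called receptors all lie below 0, and the 24 called genes of the other 8 lists all lie above 0.

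Over these 8 lists 24 of 71 tested genes rose and none fell by limma's test, beside 7.36% of all tested genes called higher and 5.97% called lower. At an unadjusted p under 0.05, 37 genes of these lists were higher and 1 lower, beside 7181 of 20484 tested genes in either direction. Where both genotypes had to be above background, 23 passed. All 24 calls were lost with median centring, with replicates 1 and 2 averaged or with a trended, robust variance. Without replicate 1, 4 genes of these lists passed, and without replicate 2, 2 passed. Over all tested genes, 1 was called higher with median centring, 24 with replicates 1 and 2 averaged and 0 with the trended variance. Without replicate 1 that count was 115, and without replicate 2 it was 66.

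DCP2 (AT5G13570), the mRNA decapping enzyme of which the reference table gives TDT as a synonym, stood at −0.44, −0.46 and −0.96 (limma adjusted p = 0.0629); no source used here states where the mutation lies relative to this probe, so the value does not check the labels. Of markers for the parts of a seedling, all 4 of photosynthetic tissue, all 5 of root and all 3 of guard cells were well above background in both genotypes on every array. The summed level of the photosynthetic markers, in linear normalised units, ranged from 89059 to 281595 in tdt-1 and from 325865 to 418825 in wild type, and 2 of the 4 had saturated spots. Replicate 3 stood apart on these markers, with a median ratio of −2.01, against −0.22 on replicate 1 and −0.36 on replicate 2. All 4 were lower on all 3 arrays. LHCB1.3 was the 1 that passed (−0.75 ± 0.30, limma adjusted p = 0.0476), beside 5.97% of all tested genes called lower. The summed level of the guard cell markers ranged from 1532 to 1920 in tdt-1 and from 2181 to 3084 in wild type. KAT1 and FAMA fell (−1.03 ± 0.14, limma adjusted p = 0.0195, and −0.61 ± 0.155, adjusted p = 0.0380), again beside 5.97% of all tested genes. MYB60, the remaining guard cell marker, was lower on all 3 arrays with a mean of −0.36 and did not pass. The root markers summed to 5239 to 7572 in tdt-1, against 5209 to 5668 in wild type. The sign of their median ratio turned with the array, at −0.23 on replicate 1, −0.35 on replicate 2 and 0.72 on replicate 3. CASP1, of the Casparian strip, was the 1 root marker that rose (0.69 ± 0.14, limma adjusted p = 0.0295), beside 7.36% of all tested genes called higher. Another root marker was lower on all 3 arrays and did not pass, and the lowest mean ratio of the 5 was −0.52. The 4 seed storage markers summed to 369 to 1734 in tdt-1, against 282 to 353 in wild type, with none above background in wild type on all arrays. Here too replicate 3 stood apart: CRA1 had ratios of 1.21 and −0.015 on replicates 1 and 2 and 3.50 on replicate 3, and CRU3 had 0.38, 0.41 and 3.34. The part of these tissue markers in the receptor ratios was not tested.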

How the data were processed

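The authors' scanner files give spot intensities, a log10 ratio of Cy5 over Cy3 and 0 or 1 flags (other values) per spot, made with Agilent Feature Extraction 8.5.1.1 for replicates 1 and 2 and 9.1.3.1 for replicate 3, per the file headers. A series table that the authors deposited gives log2 ratios. Its columns had slope 1 and r = 1 against the scanner ratios turned to tdt-1 over wild type, and a median of 0.

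Background was corrected by limma's normexp (offset 50; limma 3.58.1, R 4.3.3), ratios by loess within arrays giving control spots no weight, and replicate 3 had its sign reversed to match the dye swap. Control and outlier spots (16, 11 and 81) were left out. A probe was tested where either genotype was well above background on all 3 arrays, with the brightest probe of a locus standing for the gene, which left 20484 of 25665 loci. The share of spots above background was 65.2% to 69.4% in tdt-1 and 69.4% to 79.7% in wild type. Precision is limited by there being 3 arrays. The fit was tested on simulated data.

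Names follow the reference table (TAIR10.1) or its synonyms, which held 25449 of the loci. Probe positions are those in the files of replicates 1 and 2, whose genome build no source used here states, and the exon or UTR under a probe was not determined. The receptors, the gene lists and the tests were chosen with earlier results of these data known. Genes named are the receptors, the rest of the family, DCP2, for each list the 3 called genes with the largest ratios or the 1 with the smallest p, the 3 genes nearest to PYL6 and PYL7, and others added after their values were seen. The alternatives covered background correction, normalisation, filters, probe choice, dye term, array weights, variance model and each array left out.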

Additional observations from a re-analysis of the deposited data

How the results depend on the processing

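The 4 receptors called lower became 7 without replicate 3 and with array weights (which also called 1 higher, as did leaving out replicate 3), 8 with a dye term, 1 without replicate 1 or without replicate 2, and 0 with replicates 1 and 2 averaged, with median centring and with a trended, robust variance. The other alternatives gave 3 to 5. The median receptor ratio of −0.77 lay between −0.88 and −0.62, at −0.63 with median centring and between −0.81 and −0.62 with an array left out. Of 20484 genes, 1508 were higher and 1222 lower in tdt-1. The counts were 8170 and 6710 with array weights, 6941 and 6260 with a dye term, 24 and 19 with replicates 1 and 2 averaged, 1 and 0 with median centring, and 0 and 0 with a trended, robust variance, where adjusted p values started at 0.0638 while 7318 genes stood under 0.05 before adjustment. With an array left out they ranged from 66 to 7002 higher and from 45 to 5463 lower. The 24 genes called in the other abscisic acid lists became 58 with array weights, 54 with a dye term, 0 with median centring, with replicates 1 and 2 averaged and with a trended variance, and 2 to 51 with an array left out. The counts under array weights, the dye term and the omission of replicate 3 rest mainly or wholly on the spread between replicates 1 and 2 (replicate 3 had a weight of 0.106). Direction changed only for PYL7, which stood at 0.028 with median centring, 0.10 with the scanner ratio and the authors' table, 0.19 with array weights and −0.19 to 0.22 with an array left out (0.22 without replicate 3), and for PYL8, at 0.26 with median centring and −0.11 to 0.013 with an array left out (0.013 without replicate 1). The settings for filters, probe choice and variance model could not move a receptor's ratio, so they do not test its direction. A random block for replicates 1 and 2 was not run, since its correlation could not be estimated from 3 arrays. Each array pairs the genotypes and 1 ratio per array enters the fit, so the test against 0 is itself a paired analysis.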
